A study of Mus musculus with 9 samples.

Results

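The BCL2 family decides at the mitochondrion whether a cell lives or dies, and 10 of its genes were followed in growing mouse oocytes of 3 sex chromosome complements, XX, XO and XY. The genes were taken by name: the survival genes Bcl2, Bcl2l1, Bcl2l10 and Mcl1, the effectors Bax and Bak1, and the BH3-only genes Bid, Bbc3, Pmaip1 and Bcl2l11. All 10 were among the 28052 genes of the unique molecular identifier (UMI) counts. All groups were of the C57BL/6 strain and were taken at 18 days postpartum (dpp). XY females carried the Y chromosome of the B6.Y TIR strain on the C57BL/6J background, and XX females were their littermates, both born to B6.Y TIR males and B6 females. XO females were born to Paf carrier males, which came from the C3H/HeSnJ background and had been backcrossed to B6, and to B6 females. The XO genotype and its cross therefore cannot be told apart. Each genotype had 3 biological replicates, and each replicate was a pool of 30 oocytes, 10 with a diameter of 50-55 µm and 20 of 55-60 µm. The comparisons asked how transcript levels at this stage differ with the sex chromosome complement.

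Proteins of this family share BCL2 homology (BH) domains and sort into opposing roles. Survival proteins hold the effectors BAX and BAK1 and the BH3-only proteins in check, and once the effectors are free they open the outer mitochondrial membrane, which releases cytochrome c and starts the caspases. BH3-only proteins report stress or the loss of growth factors by binding the survival proteins or the effectors. In the ovary this balance is known for its part in the loss of oocytes from the fetal stages onward, and Bcl2l10 is known as an abundant transcript of the oocyte.

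Each pool had between 2130145 and 3157338 gene UMIs. With this depth and the spike-in factors, 1 UMI was worth between 0.302 and 0.565 of the normalized CPM, the authors' unit of scaled UMI counts. The factors were 0.703 to 0.847 in XO and 1.13 to 1.25 in XX, and a lower factor raises the normalized level. A UMI marks 1 molecule at its 5′ end, and levels were not divided by transcript length. Library XO1 stood apart from the other XO pools, with a mean Spearman correlation of 0.646 to them, and XY1 had 0.878. XX pools had values between 0.927 and 0.948. These correlations are over the tested genes in normalized CPM. The study instead described XX1, XO2 and XY1 as less like their replicates, in a choice of highly expressed and variable genes. All 12 oocyte markers were detected, with sums between 10355 and 41632 normalized CPM, the lowest in XO1 and the next in XY1. Zp2, a zona pellucida gene, made up 39.0 to 66.8% of these sums and was lowest in the same 2 pools, while Gdf9 was at 339 in XO1, above the XX pools at 252, 272 and 319. Granulosa markers, 11 of 14 in the files, summed to between 51.5 and 95.4 normalized CPM, and Amh, Foxl2 and Hsd17b1 were not among the listed genes. Theca and stroma markers, 6 of 10 in the files, summed to between 2.45 and 10.7, and of 7 blood and immune markers only Cd68 had any UMI, with 1.69 normalized CPM in XO3. The sum of the 4 endothelial markers ran from 20.7 in XO1 to 146 in XO3. In pools, fewer cells of a type and less RNA per cell cannot be told apart.

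The sequences around the starts of 4 members are shown because 5′ UMIs count transcripts from these ends and because they span the family's range, from the gene that was called between genotypes to genes with almost no UMI. RefSeq gave 13 promoter windows of 300 bases (250 before and 50 after a start, GRCm38.p6) for 8 of the 10 members, none for Bcl2l10 or Pmaip1. Capitals mark the matches of 4 motifs, each searched on both strands. The FOXO consensus was taken as GTAAACA. The letters GGGCGG stood for the GC box. The box of promoters read by NF-Y was taken as CCAAT. For the TATA box the search used TATAAA. Of 2 Bcl2l11 windows, the one printed, chr2:128125788-128126087 on the plus strand, held 1 FOXO consensus, 3 GC boxes and 1 CCAAT box, and the other, chr2:128127325-128127624, held 0 FOXO consensus, 3 GC boxes and 2 CCAAT boxes. The Mcl1 window, chr3:95658471-95658770 on the plus strand, held 1 GC box. The Bax window, chr7:45466849-45467148 on the minus strand, held 3 GC boxes. The Bak1 window, chr17:27028578-27028877 on the minus strand, held none of these motifs and so has no capitals.
Bcl2l11: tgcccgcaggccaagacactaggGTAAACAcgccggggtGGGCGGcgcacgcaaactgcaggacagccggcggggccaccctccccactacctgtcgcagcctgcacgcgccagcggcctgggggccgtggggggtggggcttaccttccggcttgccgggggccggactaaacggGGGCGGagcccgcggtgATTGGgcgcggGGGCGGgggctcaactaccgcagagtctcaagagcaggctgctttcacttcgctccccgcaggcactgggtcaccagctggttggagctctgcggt
Mcl1: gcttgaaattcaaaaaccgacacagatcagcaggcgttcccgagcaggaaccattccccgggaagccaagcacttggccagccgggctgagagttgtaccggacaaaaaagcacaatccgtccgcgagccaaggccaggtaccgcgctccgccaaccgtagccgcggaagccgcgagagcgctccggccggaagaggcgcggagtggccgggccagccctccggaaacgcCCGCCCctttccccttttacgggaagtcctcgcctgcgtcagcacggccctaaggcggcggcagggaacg
Bax: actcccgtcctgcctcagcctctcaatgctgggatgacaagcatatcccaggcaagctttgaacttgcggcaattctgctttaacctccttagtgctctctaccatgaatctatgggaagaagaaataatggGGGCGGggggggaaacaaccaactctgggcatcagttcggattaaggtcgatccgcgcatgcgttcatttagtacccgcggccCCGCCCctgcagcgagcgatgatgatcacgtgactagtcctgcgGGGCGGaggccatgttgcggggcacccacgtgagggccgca
Bak1: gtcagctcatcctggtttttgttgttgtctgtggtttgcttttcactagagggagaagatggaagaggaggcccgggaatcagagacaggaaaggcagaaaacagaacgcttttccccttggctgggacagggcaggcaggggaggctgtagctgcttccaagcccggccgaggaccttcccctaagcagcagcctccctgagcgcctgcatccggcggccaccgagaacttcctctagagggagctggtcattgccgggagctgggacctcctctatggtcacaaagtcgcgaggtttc
Of all 32851 RefSeq windows of this length, 3.65% held the FOXO consensus, 35.7% a GC box, 37.4% a CCAAT box and 13.6% a TATA box. The FOXO consensus was in 1 of 2 Bcl2l11 windows and 1 of 3 Bbc3 windows. None of the 13 windows held a TATA box, and a match describes letters, not a bound site.

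Transcripts of the family in these oocytes were mostly those of 1 survival gene. The 10 genes together had 3219 UMIs over 9 pools, and 81.8% of them were Bcl2l10, which is classed with the survival genes and is best known from oocytes. Survival genes had 2978 UMIs, BH3-only genes 239 and the effectors 2. The effector UMIs were 1 of Bak1 in XX2 and 1 of Bax in XY2.

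Bcl2l10 (chromosome 9, 75347758 to 75351632, plus strand, GRCm38) had levels of 107, 100.5 and 119 normalized CPM in XX1, XX2 and XX3. In the XO pools the levels were 48.7, 151 and 175, and in the XY pools 76.2, 101 and 146. The XX mean was 109 ± 9.47 (SD, n = 3), the XO mean 125 ± 67.1 and the XY mean 108 ± 35.4, which placed it 1105th, 1417th and 1219th among 28051 genes. The XX pools were close together and lay inside the range of the XO pools. XO1 and XY1 were the lowest of their genotypes, the same pools in which the sum of the oocyte markers was lowest. Zp2 made up 47.5% of that sum in XO1 and 66.7% in XY1. The part of the low marker sums in the Bcl2l10 levels was not tested.

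Mcl1 (chromosome 3, 95658788 to 95663176, plus strand), a short-lived survival protein that binds BIM and BAK1, was the next survival gene by level. It was at 16.4, 8.05 and 9.44 normalized CPM in the XX pools, 8.28, 5.69 and 11.9 in XO and 12.1, 9.77 and 8.75 in XY. Levels of the 3 genotypes overlapped. In UMIs scaled to the gene total alone, the XO pools of Mcl1 were at 4.81 to 8.33, below the XX pools at 9.40 to 18.4 and the XY pools at 9.18 to 12.2. Bcl2l1 (chromosome 2, 152780668 to 152831728, minus strand), which encodes BCL-XL, was at 1.78, 1.40 and 7.01 in XX, 2.59, 5.69 and 9.03 in XO and 6.51, 1.63 and 5.43 in XY. The spread within each genotype was wider than the difference between their means. Bcl2 itself (chromosome 1, 106538178 to 106714274, minus strand), the founding gene of the family, had 12 UMIs in all, at most 3 in a pool.

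Among the BH3-only genes Bid (chromosome 6, 120891930 to 120916853, minus strand), which caspase-8 cleaves to link death receptors to the mitochondrion, was at 4.63, 3.15 and 4.87 normalized CPM in the XX pools. It was at 6.21, 5.69 and 5.08 in XO and 4.18, 2.28 and 3.62 in XY. All XO pools were above all others on this scale, but in UMIs scaled to the gene total alone, without the spike-in factors, they overlapped both other genotypes. Bid overlaps Bcl2l13 and Gm17812 on the other strand and Gm44260 on its own, and counting was stated to use strand. Its reads and those of Gm44260 may not be separable.

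Bcl2l11 (chromosome 2, 128126038 to 128162547, plus strand), which encodes BIM, a BH3-only protein that binds all survival proteins, stood out from the other members between genotypes. It was at 1.42, 2.45 and 2.74 normalized CPM in the XX pools, from 4, 7 and 9 UMIs. In the XO pools it was at 5.18, 8.27 and 18.6, from 10, 16 and 33 UMIs, and in XY at 1.86, 3.26 and 8.15, from 4, 10 and 27 UMIs. Every XO pool was above every XX pool, with and without the spike-in factors, and the XY pools reached into both ranges. How often the pools of all tested genes separate in this way was not counted, for this gene or any other named here. Some oocyte markers went the same way as these levels and others did not. Between XX and XO 4 of the 12 tested oocyte markers were called, all lower in XX, with log2 fold changes of -3.81 for Zp1, -2.85 for Nobox, -2.21 for Ooep and -2.11 for Gdf9 (edgeR, unadjusted p below 0.05). Each of these 4 was highest in XO3, as Bcl2l11 was, and Gdf9 was at 339, 869 and 2432 normalized CPM in XO1, XO2 and XO3. The XX and XO pools of Zp1, Nobox and Ooep overlapped. Of all tested genes 18.1% were called in this comparison and 16.7% were lower in XX. Zp3, Dppa3, Kit and Nlrp5 were also lower in XX and not called, at -1.78, -0.88, -0.42 and -0.10. Zp2, Ddx4, Figla and Bmp15 were higher in XX and not called, at 0.46, 0.22, 0.15 and 0.06. Between XY and XO 5 were called, Zp1, Nobox, Ooep, Gdf9 and Bmp15, all lower in XY, where 9.93% of all tested genes were called. Between XX and XY 1 was called, Bmp15, higher in XX, where 5.8% of all tested genes were called. Of 3 tested granulosa markers Kitl was called between XX and XO, higher in XX (log2 fold change 1.09). Granulosa markers summed to 51.5 to 68.5 normalized CPM in XX and 59.0 to 68.9 in XO. The sum of the endothelial markers was 26.6 to 58.5 in XX and 20.7, 115 and 146 in XO1, XO2 and XO3, mostly from Pecam1, while Cdh5 had at most 3 UMIs and Kdr at most 1 in an XO pool. The part of these oocyte, granulosa and endothelial markers in the Bcl2l11 levels was not tested.

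The remaining BH3-only genes were near the limit of detection. Pmaip1, which encodes NOXA, a partner of MCL1, had no UMI in the XX pools, 5, 1 and 0 in XO and 1, 6 and 6 in XY. The mean level of 1.41 ± 0.821 normalized CPM (SD, n = 3) in XY was 4.18 times the XX limit of 3 UMIs per genotype, 0.337. This ratio is not a lower bound, since the limit covers counting error in XX only. The XY mean rested on 13 UMIs, and XY1 was at 0.465. In XO 5 of the 6 UMIs were in XO1, at 2.59 normalized CPM, and XO2 and XO3 were at 0.517 and 0, so no fold is given. Bbc3 (chromosome 7, 16308393 to 16318205, plus strand), which encodes the p53 target PUMA, had 1 UMI in XX1 and 1 in XY3.

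**Figure D1:**
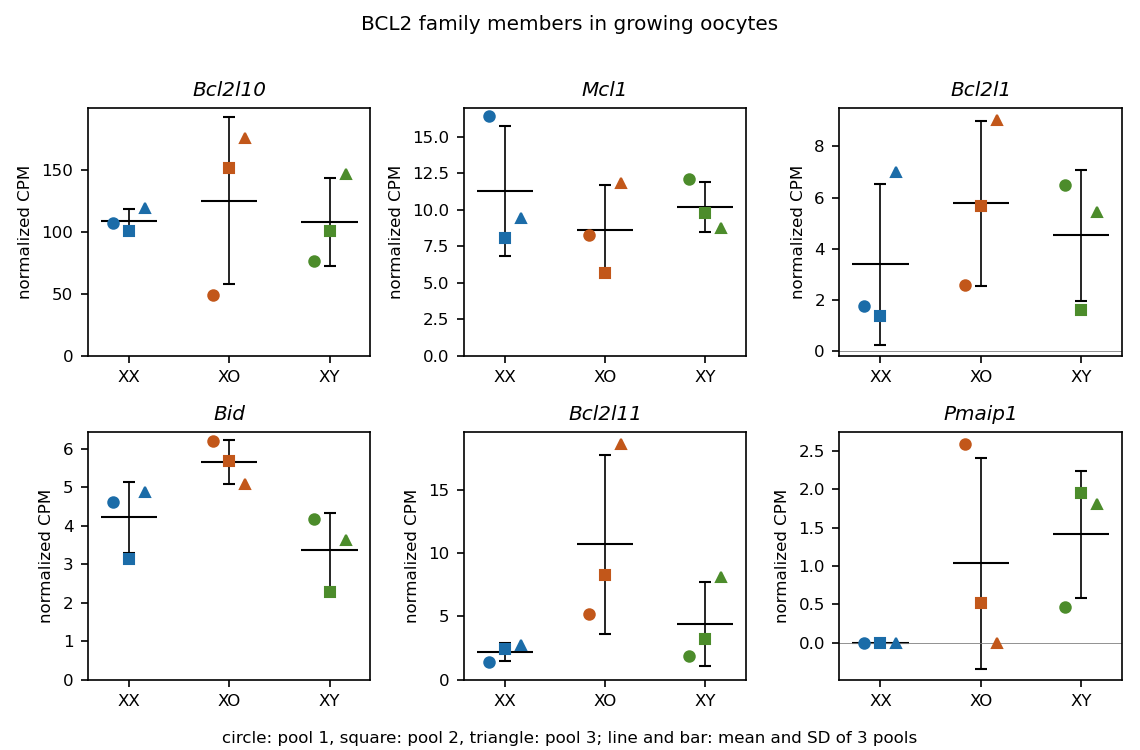
Levels of 6 BCL2 family members in normalized CPM (vertical axis, which includes 0) for 3 pools each of XX, XO and XY oocytes (horizontal axis), with each pool as a symbol and the mean and SD of 3 pools as lines. Bcl2l11 was between 1.42 and 2.74 in XX and between 5.18 and 18.6 in XO, and Pmaip1 was at 0 in all XX pools.

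The order of the members by level was similar at its ends and differed in the middle. Bcl2l10 was first in each genotype, and its pools did not overlap those of the next member. Mcl1 was next in XX and XY, at 11.3 ± 4.46 and 10.2 ± 1.71 normalized CPM (SD, n = 3). In XO the next was Bcl2l11, at 10.7 ± 7.05, and it overlapped Mcl1, at 8.61 ± 3.10. Bid, Bcl2l1 and Bcl2l11 followed in XX, and Bid overlapped Bcl2l1 as Bcl2l1 overlapped Bcl2l11. In XO Bcl2l1 overlapped Mcl1 and Bid, and in XY Bcl2l11 overlapped Bcl2l1 and Bid. Bcl2, Bax, Bak1, Bbc3 and Pmaip1 followed below them in every genotype, and each overlapped its neighbour in the order.

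The effectors (Bax on chromosome 7, 45461697 to 45466898, and Bak1 on chromosome 17, 27019810 to 27029009, both on the minus strand) were not detectable beyond single molecules at this depth. Bax had 0 UMIs in XX and in XO, which allows up to 0.337 and 0.533 normalized CPM. Bak1 had 0 UMIs in XO and in XY, which allows up to 0.533 and 0.364. These limits refer to transcripts, and protein was not measured.

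Shares of the family's own UMIs do not depend on the scaling between pools. Survival genes made up 95.1, 94.9 and 94.7% of them in the XX pools, 81.0, 91.8 and 89.3% in XO and 93.6, 93.5 and 92.0% in XY. BH3-only genes made up 4.86, 4.82 and 5.31% in XX, 19.0, 8.16 and 10.7% in XO and 6.36, 6.18 and 7.96% in XY. The percentages of the 3 genotypes did not overlap in the BH3-only share, which was lowest in XX and highest in XO. This share includes Bcl2l11 and is not separate evidence from it. How often other sets of genes separate in this way was not counted. Exact 95% binomial intervals of single pools spanned 2.78 to 7.74% in XX, 5.49 to 26.4% in XO and 3.52 to 10.5% in XY. Each XX interval overlapped each XY interval, so the counts behind these shares do not separate XX from XY pools. They do not separate every XO pool either. The XO1 share rested on 27 UMIs of 142.

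Bcl2l11 alone made up 1.08, 2.11 and 1.91% of the family's UMIs in XX, 7.04, 4.66 and 8.44% in XO and 1.82, 2.69 and 4.67% in XY. XX pools had exact 95% intervals reaching from 0.295 to 4.30%, and XO pools from 2.69 to 12.6%, so that single pools were loosely determined. Bcl2l10 had 75, 41 and 43.4 UMIs for each Bcl2l11 UMI in XX, and 9.4, 18.2 and 9.39 in XO. In XY the ratio was 41, 31 and 17.9. The XX and XO pools did not overlap in this ratio.

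**Figure D2:**
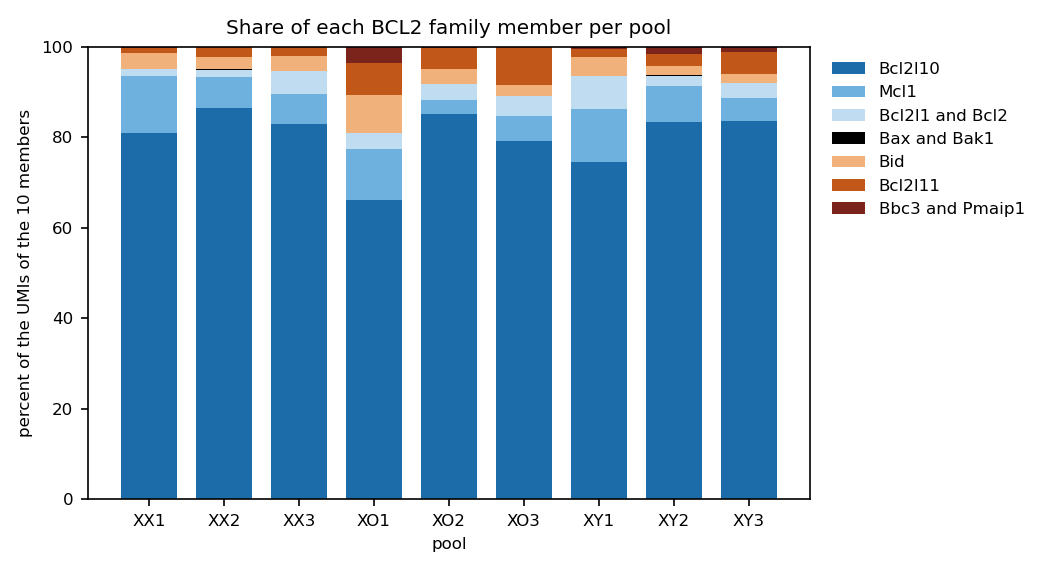
Percent of the UMIs of the 10 members (vertical axis, 0 to 100) in each of 9 pools (horizontal axis), stacked by gene or gene pair. Bcl2l10 took between 66.2% (XO1) and 86.4% (XX2), and Bcl2l11 between 1.08% (XX1) and 8.44% (XO3).

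Differences between genotypes were tested by edgeR's quasi-likelihood test over the 10993 genes that passed a filter on low counts, of which 5 were members. The members tested were Bcl2l10, Mcl1, Bcl2l1, Bid and Bcl2l11, and the 5 below the filter were Bcl2, Bax, Bak1, Bbc3 and Pmaip1. A gene was called at an unadjusted p below 0.05, and log2 fold changes are positive where the genotype named first was higher.

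Between XX and XO oocytes 1 of the 5 tested members was called, Bcl2l11, lower in XX. Of all tested genes 18.1% were called in this comparison and 16.7% were lower in XX, so 1 of 5 is near that background. The log2 fold change of Bcl2l11 was -2.24 (SE 0.66, 95% interval -3.72 to -0.76, edgeR unadjusted p = 0.00736, adjusted p = 0.203), with every XO pool above every XX pool. The median of all tested genes was -0.46 in this comparison, and relative to it Bcl2l11 was at -1.78. The adjusted p missed the threshold, and 0 of 10993 genes passed it here. With library sizes set to the spike-in totals the fold change was -1.40 (edgeR unadjusted p = 0.191), and with 2 surrogate variables, which stand for hidden batches, it was -1.05 (edgeR unadjusted p = 0.184), so that the call was lost under both. With any 1 pool left out the call was kept, at -2.56 to -1.58. Without XO1 and XY1, a choice made after seeing the data, it was -2.56 (edgeR unadjusted p = 0.000593).

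The other tested members were not called between XX and XO. Bcl2l10 had a log2 fold change of -0.20 (95% interval -1.21 to 0.82, edgeR unadjusted p = 0.672), an interval that includes a difference of 1 in one direction. The direction was not stable, since it turned to 0.23 with normalization factors of the genes (the trimmed mean of M values, TMM), 0.20 with DESeq2 size factors and 0.63 with spike-in totals. Without XO1 and XY1 it was -0.58 and was called (edgeR unadjusted p = 0.0316). Mcl1 had 0.39 (-0.51 to 1.29, edgeR unadjusted p = 0.352), the opposite sign to the median of all genes, and was called at 1.39 with 2 surrogate variables (edgeR unadjusted p = 0.0166). Bcl2l1 had -0.72 (-2.40 to 0.95, edgeR unadjusted p = 0.356) and was at -1.82 without XX3 (edgeR unadjusted p = 0.0459), the pool with the highest XX level. Bid had -0.42 (-1.28 to 0.44, edgeR unadjusted p = 0.303), close to the median of all genes, and turned to 0.53 with spike-in totals.

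Between XX and XY oocytes none of the 5 tested members was called by edgeR at an unadjusted p below 0.05, and DESeq2 and limma also called 0, against 5.8% of all tested genes (4.39% lower in XX). At an adjusted p no member and 0.0819% of all tested genes passed. Bcl2l11 had a log2 fold change of -1.02 (95% interval -2.51 to 0.48, edgeR unadjusted p = 0.160), and the pools overlapped. Without XO1 and XY1 it was -1.35 (edgeR unadjusted p = 0.0350). Bcl2l10 was at 0.01 (-1.0 to 1.03), Mcl1 at 0.15 (-0.72 to 1.02), Bid at 0.34 (-0.53 to 1.21) and Bcl2l1 at -0.36 (-2.02 to 1.29). Each of these 4 intervals is wide and reaches beyond 1 on the log2 scale, so equal levels were not shown. Pmaip1, with no UMI in XX and 13 in XY, was below the filter, and in a fit without the filter it passed for XX against XY (edgeR unadjusted p = 0.00109) and for XX against XO (edgeR unadjusted p = 0.00581), the latter with 5 of the 6 XO UMIs in XO1.

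Between XY and XO oocytes edgeR called none of the 5 members at an unadjusted p below 0.05, DESeq2 and limma called 0, and 9.93% of all tested genes were called (8.24% lower in XY). No member and 0.0364% of all tested genes passed at an adjusted p. Bcl2l11 had a log2 fold change of -1.22 (95% interval -2.61 to 0.17, edgeR unadjusted p = 0.0785). With the replicate number as a block it was -1.27 and was called (edgeR unadjusted p = 0.00779), and the differences within the numbers 1, 2 and 3 were -1.11, -1.12 and -1.10 on the log2(normalized CPM + 1) scale. The pairing of these numbers rests on the values alone, as no label says what pools of 1 number share. Leaving out XO1 gave -1.53 (edgeR unadjusted p = 0.0212) and leaving out XY3 gave -2.01 (edgeR unadjusted p = 0.0148), each called, as did leaving out both XO1 and XY1 with -1.21 (edgeR unadjusted p = 0.0462). Bid had -0.76 (-1.64 to 0.12, edgeR unadjusted p = 0.0842), with all XY pools below all XO pools in normalized CPM. Bcl2l10 had -0.21 (-1.23 to 0.80), Mcl1 0.24 (-0.66 to 1.15) and Bcl2l1 -0.36 (-2.02 to 1.30).

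**Figure D3:**
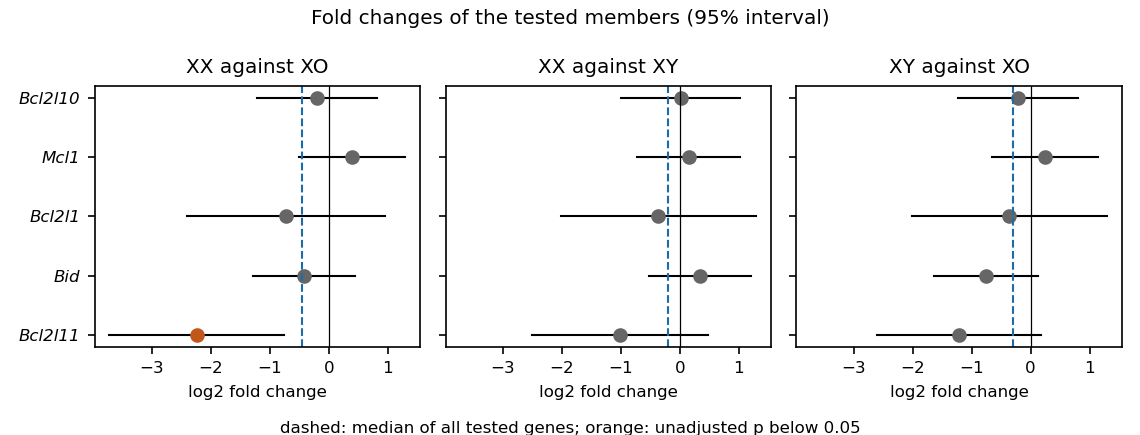
Log2 fold changes (horizontal axis) of the 5 tested members (vertical axis) in 3 comparisons, with 95% intervals from edgeR, the median of all tested genes as a dashed line and unadjusted p below 0.05 in orange. Only Bcl2l11 between XX and XO, at -2.24, has an interval that leaves out 0.

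The 3 comparisons share pools, so the Bcl2l11 values are given side by side and are not separate evidence: -2.24 for XX against XO, -1.02 for XX against XY and -1.22 for XY against XO. Over 5 tested members the median log2 fold change was -0.42, 0.01 and -0.36 in these comparisons, and over all tested genes -0.46, -0.19 and -0.30. The deposited batch-regressed log2 values differed from these fits for the most abundant member. In them Bcl2l10 was 1.06 higher in XX than in XO and 0.88 higher in XY than in XO, as differences of means with no test. Bcl2l11 was still lower in XX than in XO there, by a difference of -0.84.

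**Figure D4:**
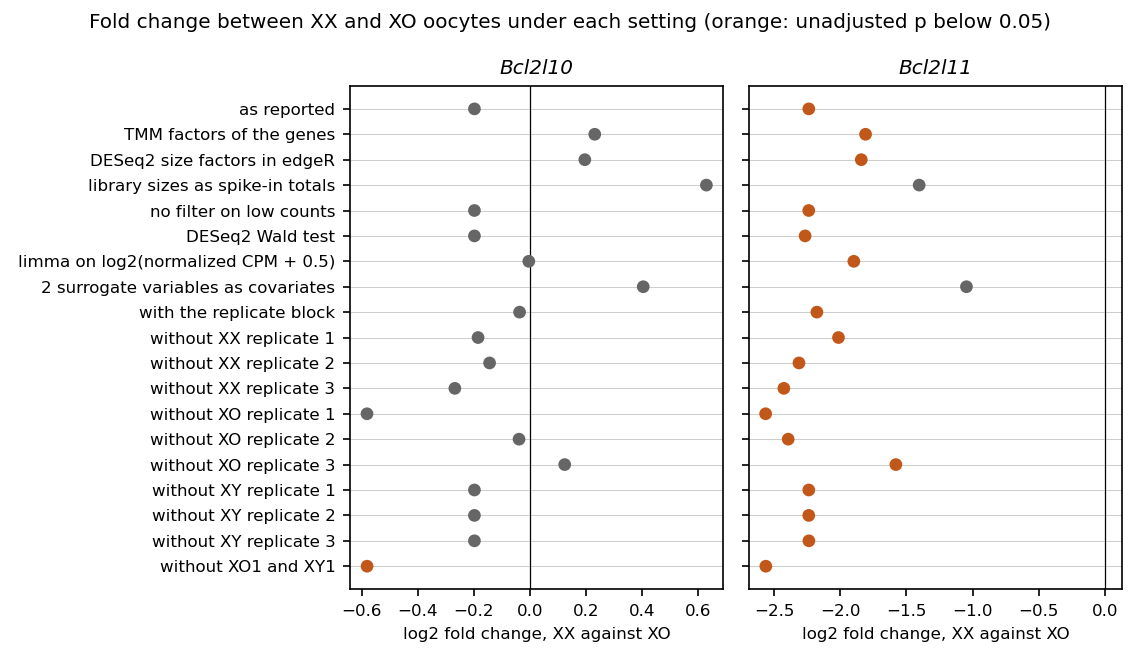
Log2 fold change between XX and XO oocytes (horizontal axis) of Bcl2l10 and Bcl2l11 in the reported fit and 18 alternatives (vertical axis), with unadjusted p below 0.05 in orange. Bcl2l11 stayed below 0 in all of them, between -2.56 and -1.05, and Bcl2l10 lay on both sides of 0, between -0.58 and 0.63.

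Genes whose levels over the 9 pools were most like those of Bcl2l10 were Gm44796 (Pearson r = 0.998), Patl2 (0.995), Gm20721 (0.994), Eif4e2 (0.992) and Gfer (0.992), on log2(normalized CPM + 1), among the 7269 tested genes whose mean level reached 10 normalized CPM. Patl2 encodes an RNA-binding protein of the oocyte and Eif4e2 a cap-binding protein. The pools share their scaling factors and the low values of XO1 and XY1, and the correlation is a description over 9 points.

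Of 15 other genes of the family, 12 were in the files, 3 were tested and none was called by edgeR at an unadjusted p below 0.05 in any comparison. Bnip3l, a mitophagy receptor with a BH3-like domain, was the most abundant. Its XX level was 80.7 ± 11.8 normalized CPM (SD, n = 3), its XO level 91.7 ± 38.0 and its XY level 94.0 ± 26.5. Bnip3, its close relative, was at 6.53 ± 2.92, 7.37 ± 5.28 and 7.20 ± 0.766. Bcl2l13, which overlaps Bid on the other strand, was at 8.42 ± 2.18, 16.6 ± 8.03 and 7.71 ± 4.31, with log2 fold changes of -0.97 for XX against XO (edgeR unadjusted p = 0.0809) and -1.08 for XY against XO (edgeR unadjusted p = 0.0565). Those 9 below the filter were Bad, Bcl2a1d, Bcl2l12, Bcl2l15, Bcl2l2, Bik, Bmf, Bok and Hrk. Bok, the effector relative of Bax and Bak1, had 1 UMI, in XX1.

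Lists of other death pathway genes held 66 genes, 60 in the files and 42 tested. Between XX and XO 4 were called, all lower in XX (9.52% of the tested list, against 18.1% of all genes). Between XX and XY 3 were called (7.14%, against 5.8%), 2 higher and 1 lower in XX. Between XY and XO 3 were called (7.14%, against 9.93%), 1 higher and 2 lower in XY. None of them passed at an adjusted p. Without XO1 and XY1 the 3 counts were 16, 10 and 10. The share of all tested genes called in that fit was not counted, so these counts have no background.

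Of 16 tested genes of the apoptosome and caspases, the comparison of XY with XO called 1 (edgeR, unadjusted p below 0.05). This was 6.25% of them, against 9.93% of all tested genes. That of XX with XY had 0 calls, against 5.8% of all tested genes. Birc2, which encodes the inhibitor cIAP1, was at 35.4 ± 8.96 normalized CPM in XX and 81.5 ± 42.5 in XO (log2 fold change -1.20, edgeR unadjusted p = 0.0352, adjusted p = 0.251). Its XX and XO pools overlapped, since XO1 was as low as the XX pools, and the call was kept in 9 of 18 alternatives and lost without XX1, XX2, XO2, XO3 or XY2. It was also lost with TMM factors of the genes, DESeq2 size factors, spike-in totals and limma. Diablo, which relieves caspases from IAP proteins, was at 10.4 ± 5.02 in XY and 25.9 ± 17.4 in XO (-1.29, edgeR unadjusted p = 0.0497, adjusted p = 0.501), and kept its call in 6 of 18, among them without XO1 and without XY3 but no other single pool left out. The Diablo call was also lost with TMM factors of the genes, DESeq2 size factors, spike-in totals, limma and surrogate variables. Cycs, cytochrome c itself, was among the highest of the list at 181 ± 23.0 in XX, 164 ± 49.5 in XO and 190 ± 14.0 in XY and was not called. Birc3, which encodes cIAP2, ranged from 74.0 in XO1 to 1064 in XO3 and was not called.

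In the death receptor pathway, with 3 genes tested, only Cflar was called in each comparison that includes XY (edgeR, unadjusted p below 0.05). It did not pass at an adjusted p. The share of all tested genes called was 5.8% for XX against XY and 9.93% for XY against XO. A list of 3 genes is too short to compare with these shares. Cflar encodes c-FLIP, which blocks caspase-8 at death receptors. It was at 146, 72.6 and 83.0 normalized CPM in the XY pools, 37.4, 35.0 and 18.3 in XX and 69.9, 20.7 and 32.7 in XO. Every XY pool was above every XX and every XO pool. How often the pools of other tested genes separate like this was not counted. The log2 fold change was -1.73 for XX against XY (SE 0.50, edgeR unadjusted p = 0.00659, adjusted p = 0.514) and 1.29 for XY against XO (SE 0.50, edgeR unadjusted p = 0.0278, adjusted p = 0.485). The first call was kept in 17 of 18 alternatives and lost with spike-in totals (-1.11, edgeR unadjusted p = 0.0871), and the second was kept in 15 and lost without XO2, XO3 or XY1. Tnfsf10, the death ligand TRAIL, was at 186 ± 72.9 in XX and 669 ± 497 in XO (-1.85, edgeR unadjusted p = 0.0404, adjusted p = 0.263), and kept its call in 9 of 18, being lost without XX1, XX2, XO2, XO3 or XY2. The Tnfsf10 call was also lost with TMM factors of the genes, DESeq2 size factors, spike-in totals and limma. XO1, at 112, was below the lowest XX pool.

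Among 9 tested genes of the p53 family and checkpoint kinases, only Chek2 was called, in both comparisons with XO. This was 11.1% of the list, against 18.1% of all tested genes for XX against XO and 9.93% for XY against XO. Chek2 encodes CHK2, the kinase that signals DNA damage to the p53 family in oocytes. It was at 3.56, 1.05 and 2.74 normalized CPM in XX, 3.11, 9.31 and 18.1 in XO and 1.86, 2.28 and 3.02 in XY. XO2 and XO3 were high, XO1 was within the XX range, and the XY pools were all below the XO pools in normalized CPM, though not in UMIs scaled to the gene total alone. The log2 fold change was -2.02 for XX against XO (edgeR unadjusted p = 0.0115, adjusted p = 0.203) and -2.04 for XY against XO (edgeR unadjusted p = 0.0113, adjusted p = 0.485). Both calls were kept in 15 of 18 alternatives and lost in 3. With spike-in totals the values were -1.22 and -1.93 (edgeR unadjusted p = 0.222 and 0.0662), and with 2 surrogate variables -0.42 and -0.92 (edgeR unadjusted p = 0.575 and 0.112). Without XO3 they were -1.32 and -1.34 (edgeR unadjusted p = 0.0757 and 0.0730). Mdm4, an inhibitor of p53, was the most abundant gene of the list, with means of 4967 ± 1009 in XX, 6448 ± 4656 in XO and 4947 ± 2516 in XY. Chek1, the kinase of the replication checkpoint, was at 1082 ± 183, 980 ± 223 and 965 ± 176 in the same order. Neither was called.

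Of 11 tested partners that set the levels or sites of BCL2 proteins, 2 were called, both X-linked and both higher in XX than in XY, where 5.8% of all tested genes were called and 1.41% were called higher in XX. In each of the other 2 comparisons 0 of the 11 were called (edgeR, unadjusted p below 0.05), while DESeq2 at an unadjusted p below 0.05 called Huwe1 and Itpr1 between XX and XO. Usp9x encodes a deubiquitinase known to stabilize MCL1, and Huwe1 a ubiquitin ligase known to mark MCL1 for degradation. Usp9x was at 652, 634 and 474 normalized CPM in XX, 654, 279 and 248 in XO and 385, 238 and 233 in XY. Every XX pool was above every XY pool, while XO1 was at the XX level. The log2 fold change of Usp9x was 1.04 for XX against XY (SE 0.44, edgeR unadjusted p = 0.0396, adjusted p = 0.801). Huwe1 was at 96.5, 81.9 and 93.2 in XX, 54.9, 66.2 and 67.2 in XO and 59.0, 43.0 and 60.4 in XY. Its XX pools were above all XO and XY pools, with log2 fold changes of 0.74 for XX against XY (SE 0.26, edgeR unadjusted p = 0.0164, adjusted p = 0.650) and 0.53 for XX against XO (edgeR unadjusted p = 0.0665). Both calls were kept in 14 of 18 alternatives. That of Usp9x was lost without XX1, XX2, XY2 or XY3 (0.91 to 0.98), and that of Huwe1 with spike-in totals, with no filter on low counts and without XX1 or XY2. The median of 369 tested X-linked genes was 0.56 for XX against XY and that of 10576 autosomal genes -0.20. The most abundant partners, Vdac3, a channel of the outer membrane, and Ywhaz, a 14-3-3 protein, were not called.

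**Figure D5:**
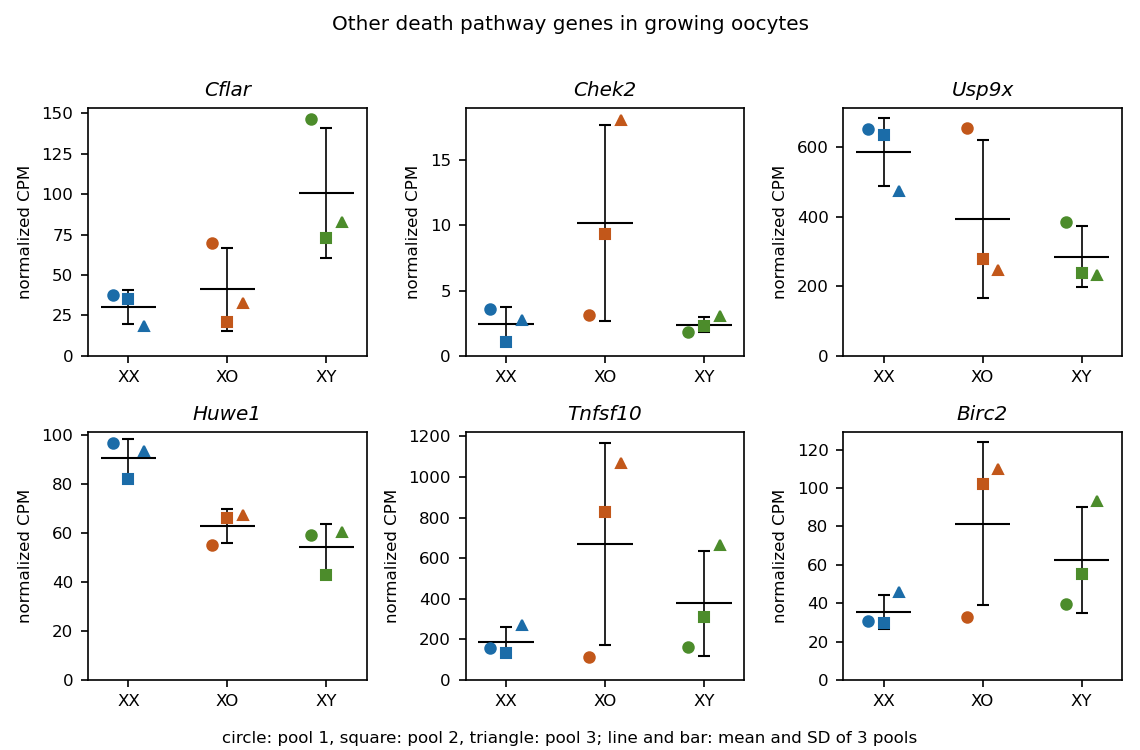
Levels of 6 other death pathway genes in normalized CPM (vertical axis, which includes 0) for 3 pools each of XX, XO and XY oocytes (horizontal axis), with each pool as a symbol and the mean and SD of 3 pools as lines. Cflar was at 72.6 or above in XY and at 69.9 or below elsewhere, and Huwe1 at 81.9 or above in XX and at 67.2 or below elsewhere.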

How the data were processed

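Smart-seq3 libraries of 9 pools were sequenced. Hisat2 was the aligner of the authors, run stranded on read pairs with the GRCm38 genome and Gencode, and they deposited counts of 5′ UMIs per gene. The deposited normalized CPM is a signal that the authors scaled with ERCC spike-ins. Recomputing it from the counts, with the gene UMI total times a TMM factor of the spike-ins as divisor, gave the same values within 4.9e-15. It is therefore not scaled to the total of spike-in UMIs in a pool. The deposited log2 matrix holds values from which the authors regressed batch effects. GRCm38 coordinates are those of the files, and 9 of 10 members have the same ones in Gencode vM21. Promoter windows are from RefSeq.

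Counts were tested in 1 fit of 9 libraries with edgeR 4.0.16 (R 4.3.3), TMM factors of the 79 spike-ins and filterByExpr (minimum count 10, minimum total 15), which left 10993 genes. Adjustment was by Benjamini-Hochberg over them. Tests were two-sided, and steps were tested on simulated data. Alternatives used DESeq2 1.42.0, limma 3.58.1 with an offset of 0.5 and sva 3.50.0 with 2 surrogate variables. The deposited counts hold 1 entry that is neither gene nor spike-in, which was left out.

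Same-numbered XY and XO pools deviated together (correlations 0.830, 0.278 and 0.773), while those of XX with XO and with XY did so only for the numbers 1 and 3 (-0.447 and -0.06 for number 2). The pairing of XY with XO comes from these values alone. The limit for a count of 0 is 3 UMIs, and it and the exact 95% binomial intervals cover counting error only. Members and lists were chosen with earlier results of these data known. Named genes are all members, all measured relatives of the family, from each other list the 2 most abundant genes and up to 3 called genes of smallest p per comparison, and the 5 genes most like the most abundant member. Values of 1 gene that the rule names are not reported here.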

Additional observations from a re-analysis of the deposited data

How the results depend on the processing

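Each fold change was refitted under 18 alternatives. Of the fold changes of members so obtained, 237 kept direction and side of the threshold, 22 turned direction, 9 became called and 2 lost the call. The cause was not tested for any of them. The share of all tested genes called was counted in the reported fit only. The counts of called genes below therefore have no background and are not read as results about these lists.

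The count of members called between XX and XO, 1 as reported, became 0 with spike-in totals as library sizes, 2 with no filter on low counts and 2 without XO1 and XY1 (chosen after seeing the data), and ranged from 1 to 2 when 1 pool was left out (2 without XX3). Between XX and XY it went from 0 to 1 with no filter and to 1 without XO1 and XY1, and was 0 with each single pool left out. Between XY and XO it went from 0 to 1 with no filter, to 1 without XO1 and XY1, and to 1 with the replicate block, and ranged from 0 to 1 with 1 pool left out (1 without XO1 or without XY3).

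The count of other death pathway genes called between XX and XO, 4 as reported, was 2 with TMM factors of the genes, 2 with DESeq2 size factors, 10 with no filter, 1 with limma, 8 with 2 surrogate variables and 16 without XO1 and XY1. It ranged from 0 (without XO3) to 15 (without XO1) with 1 pool left out, and was 1 without XX1, XX2, XO2 or XY2. Between XX and XY, 3 as reported, it was 8 with surrogate variables and 10 without XO1 and XY1, and ranged from 1 (without XY2) to 6 (without XO1). Between XY and XO, 3 as reported, it was 8 with no filter, 6 with surrogate variables, 6 with the replicate block and 10 without XO1 and XY1, and ranged from 0 (without XO3) to 11 (without XO1), with 5 without XY3 and 1 without XO2 or XY1. The replicate block changed no other call of a member or count by over 1.5 times.

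Directions that turned were these. Between XX and XO, Bcl2l10 was 0.23 with TMM factors, 0.20 with DESeq2 size factors, 0.63 with spike-in totals, 0.41 with surrogate variables and ranged from -0.58 to 0.12 with 1 pool left out. Bcl2l1 was 0.47 with spike-in totals and 0.89 with surrogate variables, and Bid 0.53 with spike-in totals. Between XX and XY, Bcl2l1 was 0.73 with spike-in totals and 0.26 with surrogate variables, Bcl2l10 was -0.18 without XO1 and XY1 and ranged from -0.18 (without XY1) to 0.30 (without XY3) with 1 pool left out, and Mcl1 from -0.21 (without XX1) to 0.34 (without XX2). Between XY and XO, Bcl2l10 was 0.026 with TMM factors, 0.0014 with DESeq2 size factors and 0.28 with surrogate variables, and ranged from -0.59 (without XO1) to 0.11 (without XO3). Bcl2l1 was 0.63 with surrogate variables and ranged from -0.72 (without XO1) to 0.11 (without XO3). Scalings moved the median of all tested genes between XX and XO from -0.46 to -0.11 (TMM), -0.15 (DESeq2 size factors) and 0.42 (spike-in totals). Depth limits Bcl2, Bax, Bak1, Bbc3 and Pmaip1, which had at most 19 UMIs each.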
